A study of Mus musculus with 14 samples.

Results

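The genes described here are the machinery and cargo receptors of macroautophagy: 41 mouse genes that start an autophagosome, make its lipid signal, attach ubiquitin-like proteins to its membrane, load cargo and fuse it with the lysosome. They were found on the array by the RefSeq accession of each probe and were named in a list of genes. The rule that picks them holds no value, but the list was chosen with earlier results of these data known. Of 21352 named genes on the array these are 41, measured by 54 probes, and 37 of them were among the 15834 genes bright enough to be tested. Wipi1, Atg4a, Optn and Calcoco1 were not tested, since their brightest probes lay well above background on 4, 0, 1 and 2 of 14 arrays.

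RNA came from macrophages grown for 1 week in M-CSF from bone marrow of female C57BL/6 mice aged 8 weeks. Every mouse carried the label LysM-Double-Cre, that is Cre recombinase driven from the lysozyme M locus of myeloid cells, and the genotypes differ in a TFEB transgene, present in transgenic and absent in wild-type animals. Macrophages then spent 24 h in DMEM alone (control) or in DMEM with medium conditioned by EO771 cells, a mouse mammary tumour line, and tumour lysate (tumour material). Analysed here were 3 wild-type control, 3 wild-type tumour, 3 transgenic control and 2 transgenic tumour replicates on 14 one-colour arrays; replicate 1 of the transgenic tumour group was not analysed here. Tumour material was compared with control in each genotype, and transgenic with wild-type cells in each medium.

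Macroautophagy wraps cytoplasm in a growing double membrane. The Ulk1 kinase complex starts the process, a lipid kinase complex built on Pik3c3 and Becn1 marks the site with phosphatidylinositol 3-phosphate, and conjugation enzymes fix proteins of the LC3 and GABARAP families to the membrane, where receptors such as Sqstm1 bind them. In macrophages parts of the same machinery also act on phagosomes, and TFEB is known as a transcription factor for genes of autophagy and lysosomes. Arrays measure transcript abundance and not the flux through the pathway.

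The DNA element usually given for TFEB is the CLEAR palindrome around CACGTG, and the promoters holding its longer form are printed here because the members include genes that moved and genes that did not. RefSeq promoters of assembly GRCm38.p6, 250 bases before to 50 after each transcript start, were matched by symbol for 34 of the 41 genes. Searched on both strands, the full CLEAR palindrome was in 0 of these 34 genes and in 0.370% of 27025 genes. The shorter GTCACGTG, which lies within it, was in 4 of 34 (11.8%, against 2.55% of all genes), and the core CACGTG, which lies within both, in 5 of 34 (14.7%, against 8.09%). The 4 were Atg14, Atg3, Atg7 and Tbk1, and Atg5 held only the core. Each is shown 5′ to 3′ on its gene's strand from 150 bases before to 20 bases after the start, with the match in capitals. Atg14 lies on the minus strand at chr14:47568415-47568584, Atg3 on the plus strand at chr16:45158679-45158848, Atg7 on the plus strand at chr6:114670946-114671115 and Tbk1 on the minus strand at chr10:121586775-121586944.
Atg14: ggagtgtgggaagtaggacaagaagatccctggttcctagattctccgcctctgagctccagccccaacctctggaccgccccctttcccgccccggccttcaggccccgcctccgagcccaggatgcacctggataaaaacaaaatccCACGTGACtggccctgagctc
Atg3: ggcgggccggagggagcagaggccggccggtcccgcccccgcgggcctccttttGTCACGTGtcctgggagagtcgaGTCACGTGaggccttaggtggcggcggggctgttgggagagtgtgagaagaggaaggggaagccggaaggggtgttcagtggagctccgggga
Atg7: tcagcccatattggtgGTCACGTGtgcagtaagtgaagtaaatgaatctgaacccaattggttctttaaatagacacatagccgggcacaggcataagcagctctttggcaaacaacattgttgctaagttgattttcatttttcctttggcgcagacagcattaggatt
Tbk1: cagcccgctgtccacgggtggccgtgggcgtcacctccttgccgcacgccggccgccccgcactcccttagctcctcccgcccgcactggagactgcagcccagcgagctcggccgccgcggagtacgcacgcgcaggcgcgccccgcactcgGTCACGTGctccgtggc
In Atg14 the match began at the last base before the start, in Tbk1 at the fourth base after it, in Atg7 at position −134 and in Atg3 at positions −96 and −73, counted from the start. A match describes letters only, and binding was not measured.

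Between 35.5% and 40.2% of spots per array lay well above background. Arrays sat on 2 slides, so each comparison carries a slide term, and transgenic control replicate 1 stood apart, at correlations of 0.959 and 0.957 with its group's other replicates against 0.979 or more within the other groups. Slide column 4 held 3 arrays, all transgenic (control replicates 1 and 2 and a repeat of tumour replicate 3), with a larger multiplicative detrending (root mean square 0.253 to 0.331) than the rest (0.0964 to 0.126). Macrophage markers were above background on every array for 9 of 10 genes, while Lyz2, the gene at the lysozyme M locus, was above on some arrays of each wild-type group and on 0 transgenic arrays. Of 9 tested macrophage markers, 5 rose and 1 fell with tumour material in wild-type cells (median 0.66) and 3 rose in transgenic cells (median 0.14), and 2 were lower in transgenic cells in control medium and 3 with tumour material. The 1 tested dendritic cell marker, Ccr7, rose by 1.67 and 1.39 in wild-type and transgenic cells. Epithelial markers, listed for tumour cells, were above background on 0 arrays for all 6 genes (summed level 0.184 to 0.443 of the array's 75th percentile over all groups). Whether EO771 cells express these 6 genes was not tested. Neutrophil and precursor markers (9 of 10 listed on the array) moved with tumour material, with 7 of 9 tested genes lower in wild-type and 9 of 9 in transgenic cells, and between genotypes 4 of 9 were higher in transgenic cells in control medium and 2 of 9 lower with tumour material. Their summed level was 232 to 247 in wild-type control, 53.4 to 90.6 in wild-type tumour, 177 to 568 in transgenic control and 32.2 to 35.4 in transgenic tumour samples, and Ngp was above background on 0 arrays of either tumour group. Fibroblast markers (6 listed) summed to 1.39 to 22.3, 33.1 to 43.3, 0.937 to 9.77 and 7.85 to 8.80 in the same order, with Pdgfra above background on 0 arrays. Of 5 tested fibroblast markers, 2 rose with tumour material in wild-type cells (differences −0.26 to 7.07) and 1 in transgenic cells (−0.28 to 2.59). For the difference between both responses 1 of the 5 was called, lower with the transgene. Between genotypes with tumour material all 5 were on the lower side in transgenic cells (median −2.72), and 1 of them passed. Over all genes tested, 23.1% rose and 16.7% fell with tumour material in wild-type cells, and 15.1% and 10.2% in transgenic cells. Transgenic cells were higher for 3.6% and lower for 5.25% of all genes in control medium, and for 1.97% and 2.56% with tumour material. For the difference between both responses 1.95% of all genes were called. The part of all these markers in the results was not tested, and in bulk samples fewer cells of a type and less RNA per cell cannot be told apart. The sources used here do not say whether the Tfeb probe also reads the transgene. Tfeb stood at 0.97, 0.80 and 0.87 in wild-type control, −0.73, −0.71 and −0.62 in wild-type tumour, 1.33, 1.35 and 0.84 in transgenic control and −0.01 and −0.14 in transgenic tumour samples. It was lower with tumour material in both genotypes without overlap, and the genotypes overlapped in control medium.

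With tumour material, autophagy transcripts moved in both directions and mostly by less than 2-fold. In wild-type macrophages 11 of the 37 tested genes passed an adjusted p of 0.05 (limma with Benjamini-Hochberg adjustment over all 15834 genes), which is 29.7% against 39.9% of all genes tested: 7 rose (all genes 23.1%) and 4 fell (all genes 16.7%). In transgenic macrophages 9 of 37 passed, 24.3% against 25.3% of all genes, with 4 higher (all genes 15.1%) and 5 lower (all genes 10.2%). In each genotype 1 called member, Atg16l2, changed 2-fold or more, while 14.7% and 13.1% of all genes did so with a call. The median difference of the members was −0.02 in wild-type and −0.16 in transgenic cells on the log2 scale, beside 0.05 and 0.06 over all genes tested, and the median size was 0.31 and 0.32 beside 0.37 and 0.37. Replicates of control and tumour samples did not overlap for 21 of 37 members in wild-type cells (58% of all genes) and for 19 of 37 in transgenic cells (50.6% of all genes). Calls in both genotypes were shared by 6 genes, Map1lc3a, Atg4b, Atg10, Atg16l2, Sqstm1 and Tbk1, each with the same sign: 54.5% of the wild-type and 66.7% of the transgenic calls. Over all genes tested, 3241 were called in both, which is 51.3% of the wild-type and 81.0% of the transgenic calls.

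**Figure D1:**
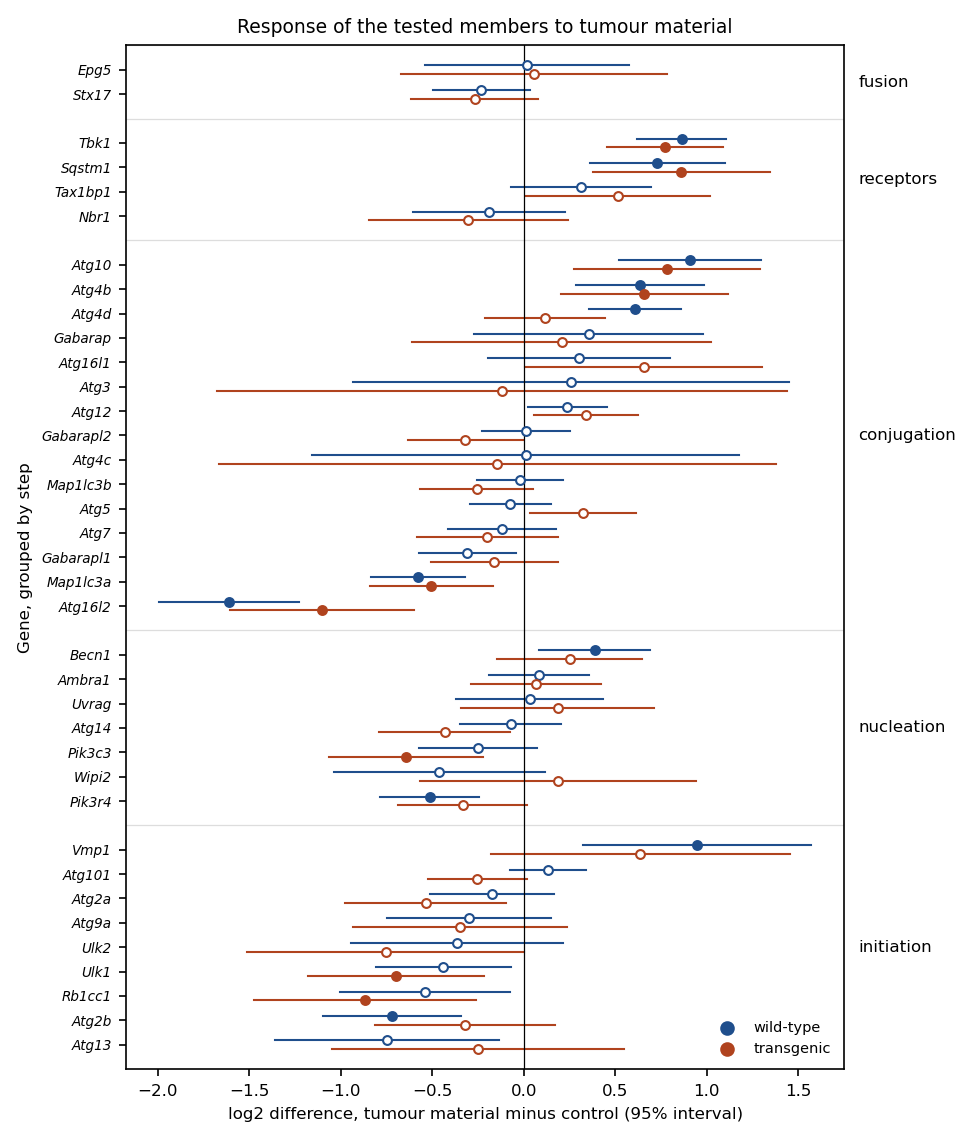
Fitted log2 difference between tumour material and control for the 37 tested genes, grouped by step, in wild-type (blue) and transgenic (red) macrophages; lines are 95% intervals, and filled points passed an adjusted p of 0.05. Atg16l2 lies farthest below 0 in both genotypes, and Tbk1, Sqstm1, Atg10 and Atg4b lie above 0 in both.

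**Figure D2:**
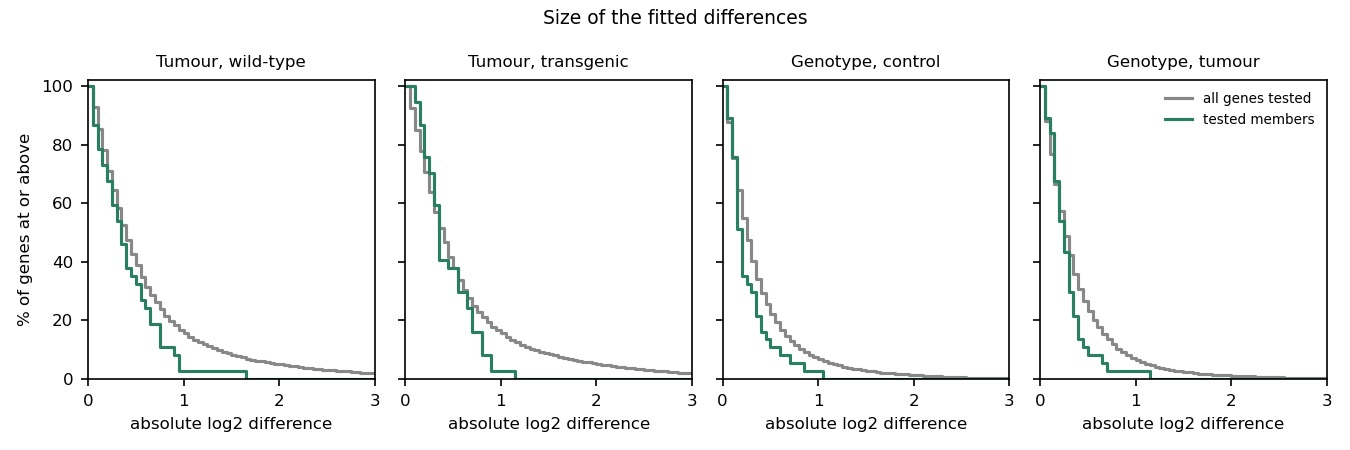
Share of genes, in percent, whose fitted absolute log2 difference reaches the value on the x axis, for the 37 tested members (green) and all 15834 genes tested (grey) in each of 4 comparisons. At an absolute difference of 1, the members stand at 2.7% in every panel, and all genes at 15.6%, 15.5%, 6.75% and 6.44% from left to right.

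**Figure D3:**
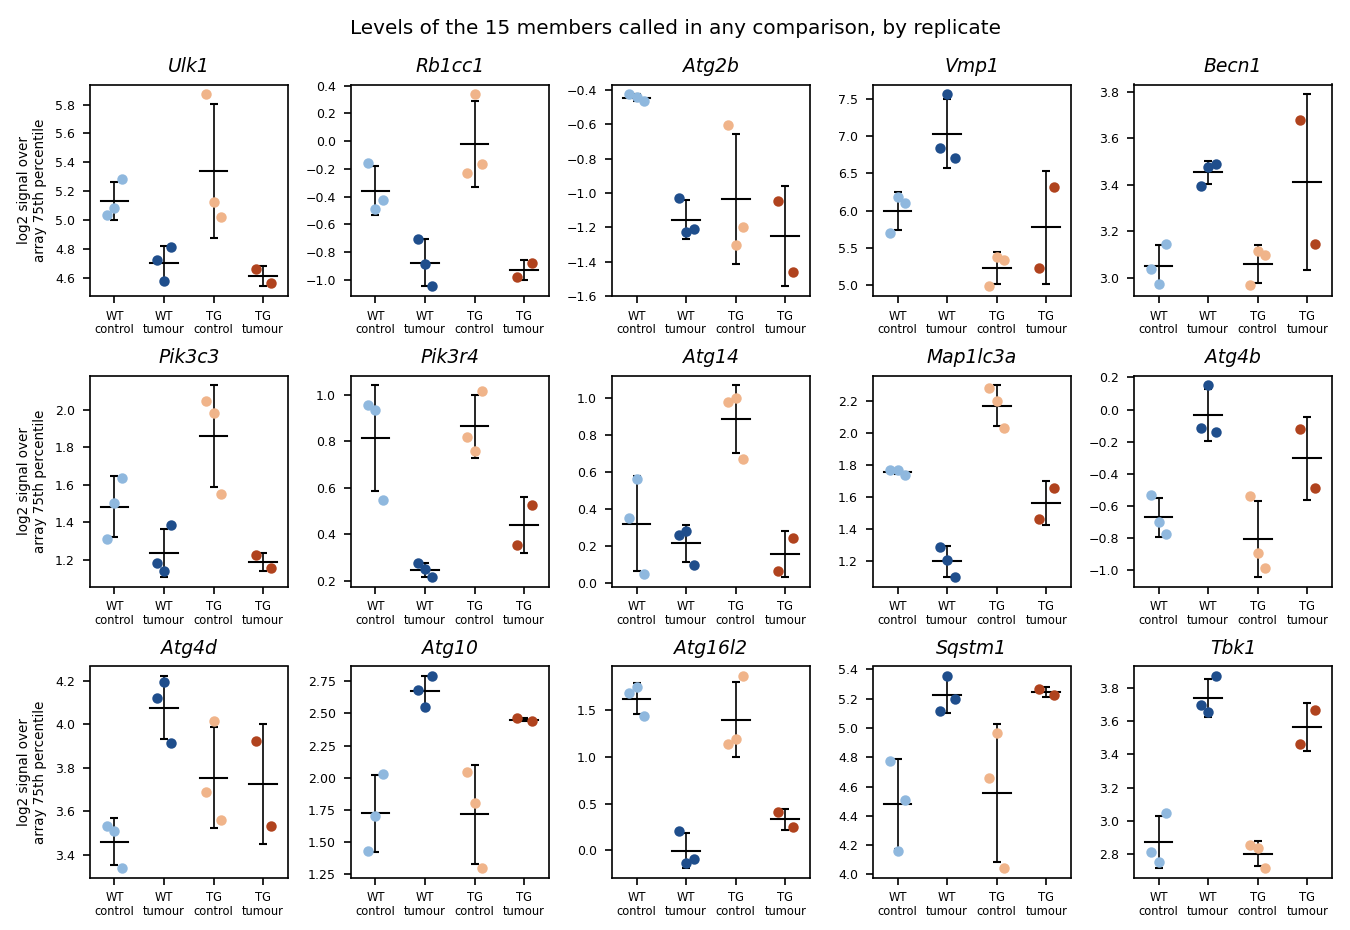
Level of the 15 genes called in any comparison, as log2 signal over the array's 75th percentile, in wild-type (WT) and transgenic (TG) macrophages with control medium or tumour material. Points are replicates, horizontal lines are group means and bars are SDs; scales differ between panels. Atg16l2 in both genotypes shows the largest gap between control and tumour points, and Atg14 is high in the 3 transgenic control samples.

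Levels below are log2 signal over the array's 75th percentile, listed by replicate from 1 to 3 for the first 3 groups and as replicates 2 and 3 for transgenic tumour samples. Differences come from the fit with its slide term, so they can depart from the gap between plain means. All comparisons share 1 fit and its estimate of the spread, so leaving out a sample of one genotype can also move a call in the other.

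Of the 9 initiation genes, 1 rose and 1 fell in wild-type cells, and 0 rose and 2 fell in transgenic cells. That is 22.2% called in each genotype, against 39.9% and 25.3% of all genes in wild-type and transgenic cells. Ulk1, the kinase that starts autophagosome formation, stood at 5.03, 5.08 and 5.28 in wild-type control, 4.72, 4.58 and 4.81 in wild-type tumour, 5.87, 5.13 and 5.02 in transgenic control and 4.66 and 4.56 in transgenic tumour samples. Tumour samples of each genotype lay below all controls, with transgenic control replicate 1 the highest of all. The Ulk1 difference was −0.70 in transgenic cells (SE 0.22, adjusted p = 0.0370) and −0.44 in wild-type cells (SE 0.17, adjusted p = 0.0578), where it missed the threshold. Rb1cc1, the scaffold of the Ulk1 complex also called FIP200, stood at −0.16, −0.49 and −0.43, at −0.70, −0.89 and −1.04, at −0.23, 0.34 and −0.16, and at −0.98 and −0.88 in the same order of groups. Again the tumour samples lay below the controls of their genotype. Rb1cc1 differed by −0.87 in transgenic cells (SE 0.28, adjusted p = 0.0386) and by −0.54 in wild-type cells (SE 0.21, adjusted p = 0.0621). A dimmer probe of Rb1cc1 had plain differences of −0.16 and 0.04, against −0.91 and −0.52 for the probe used here. Atg13, the adaptor of the same complex, stood at 1.44, 1.33 and 1.23, at 0.52, 0.57 and 0.58, at 1.34, 0.64 and 1.56, and at 0.66 and 1.17. Wild-type control and tumour samples were apart, but transgenic ones overlapped, and the differences were −0.75 (SE 0.28, adjusted p = 0.0522) and −0.25 (SE 0.37, adjusted p = 0.667).

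Atg2b, a lipid transfer protein that feeds the growing membrane, stood at −0.43, −0.44 and −0.47 in wild-type control, −1.03, −1.23 and −1.21 in wild-type tumour, −0.61, −1.30 and −1.20 in transgenic control and −1.05 and −1.46 in transgenic tumour samples. The 3 wild-type controls were the highest, with transgenic control replicate 1 nearest to them. Arrays of wild-type control replicate 3 read −0.67 and −0.26, the former below transgenic control replicate 1. Atg2b fell in wild-type cells by 0.72 (SE 0.17, adjusted p = 0.00575), a 1.65-fold difference, and stood at −0.32 in transgenic cells (SE 0.22, adjusted p = 0.335). Vmp1, a membrane protein of the endoplasmic reticulum needed for autophagosome formation, stood at 5.70, 6.18 and 6.10, at 6.84, 7.57 and 6.71, at 4.98, 5.37 and 5.33, and at 5.23 and 6.31. Wild-type tumour samples were the highest, and transgenic control and tumour samples overlapped. Vmp1 rose in wild-type cells by 0.95 (SE 0.29, adjusted p = 0.0201), which is 1.93-fold, with 0.64 in transgenic cells (SE 0.37, adjusted p = 0.247). The remaining initiation genes (Ulk2, Atg101, Atg2a and Atg9a) did not pass in either genotype, with differences from −0.37 to 0.13 in wild-type and −0.75 to −0.25 in transgenic cells. A dimmer Ulk2 probe had plain differences of −0.75 in wild-type and −0.95 in transgenic cells, against −0.37 and −0.79 for the one used. That dimmer probe was above background on 2 of 4 wild-type and 2 of 3 transgenic tumour arrays. On slide 1 alone the wild-type differences of Ulk1, Rb1cc1, Atg13, Atg2b and Vmp1 were −0.45, −0.72, −0.72, −0.68 and 1.15, and on slide 2 alone, with 1 array a group, −0.42, −0.02, −0.81, −0.82 and 0.28. Transgenic tumour arrays were all on slide 2, where the transgenic differences of these 5 genes were −0.42, −0.75, −0.56, −0.12 and 0.62.

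Of the 7 tested nucleation genes, 1 rose and 1 fell in wild-type cells, and 1 fell in transgenic cells. These are 28.6% and 14.3% called, against 39.9% and 25.3% of all genes. Becn1, the scaffold subunit of the lipid kinase complex, stood at 3.04, 2.97 and 3.15 in wild-type control, 3.39, 3.48 and 3.49 in wild-type tumour, 2.97, 3.12 and 3.1 in transgenic control and 3.68 and 3.15 in transgenic tumour samples. Tumour samples lay above the controls in both genotypes, though transgenic tumour replicate 3 did so only narrowly. Arrays of that replicate read 3.34 and, in slide column 4, 2.95, which was below all transgenic controls. Becn1 rose in wild-type cells by 0.39 (SE 0.14, adjusted p = 0.0426) and stood at 0.25 in transgenic cells (SE 0.18, adjusted p = 0.351). Pik3c3, the lipid kinase itself, stood at 1.31, 1.5 and 1.64, at 1.18, 1.14 and 1.38, at 2.05, 1.99 and 1.55, and at 1.23 and 1.16. The wild-type groups overlapped, and the transgenic ones did not. It fell in transgenic cells by 0.64 (SE 0.19, adjusted p = 0.0294), with −0.25 in wild-type cells (SE 0.15, adjusted p = 0.205), and its second probe had plain differences of −0.39 and −0.37.

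Pik3r4, the regulatory subunit that anchors Pik3c3, stood at 0.96, 0.93 and 0.55 in wild-type control, 0.27, 0.25 and 0.21 in wild-type tumour, 0.82, 0.76 and 1.02 in transgenic control and 0.35 and 0.52 in transgenic tumour samples. All tumour samples were below all controls. The wild-type fall was 0.51 (SE 0.12, adjusted p = 0.00604, 1.43-fold), and the transgenic difference was −0.33 (SE 0.16, adjusted p = 0.161). Wipi2, which reads the lipid mark, is uncertain: its brighter probe stood at 0.97, 1.96 and 0.71, at 0.81, 0.87 and 0.43, at 1.39, 1.01 and 0.70, and at 0.94 and 0.93. These groups overlapped, and the difference was −0.46 in wild-type (SE 0.26, adjusted p = 0.190), beside 0.19 in transgenic cells (SE 0.34, adjusted p = 0.736). The other Wipi2 probe went the opposite way in wild-type cells, with plain differences of 0.83 in wild-type and 0.92 in transgenic cells against −0.51 and −0.10. Uvrag, Ambra1 and Atg14 did not pass with tumour material, at −0.07 to 0.08 in wild-type and −0.43 to 0.18 in transgenic cells. Within slide 1 the wild-type differences of Becn1, Pik3c3 and Pik3r4 were 0.41, −0.21 and −0.57, and within slide 2 they were 0.33, −0.35 and −0.33, beside 0.23, −0.37 and −0.55 for the transgenic differences there.

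The conjugation step held the largest member change. Of 15 tested genes, 3 rose and 2 fell in wild-type cells, and 2 rose and 2 fell in transgenic cells. The shares called were 33.3% and 26.7%, against 39.9% and 25.3% of all genes. Atg16l2, a paralogue of the Atg16l1 subunit that places the conjugation enzyme on the membrane, stood at 1.68, 1.75 and 1.44 in wild-type control, 0.21, −0.14 and −0.09 in wild-type tumour, 1.14, 1.20 and 1.87 in transgenic control and 0.41 and 0.25 in transgenic tumour samples. Every tumour sample lay below every control. Atg16l2 fell by 1.61 in wild-type cells (SE 0.18, adjusted p = 2.22e-05), which is 3.05-fold, and by 1.10 in transgenic cells (SE 0.23, adjusted p = 0.00413), which is 2.15-fold. Its second probe had plain differences of −1.46 and −1.15. Atg16l1, the main form, did not pass, at 0.30 in wild-type (SE 0.23, adjusted p = 0.318), beside 0.66 in transgenic cells (SE 0.30, adjusted p = 0.134).

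Atg10, the E2-like enzyme that hands Atg12 to Atg5, stood at 1.43, 1.71 and 2.03 in wild-type control, 2.68, 2.55 and 2.79 in wild-type tumour, 2.05, 1.80 and 1.30 in transgenic control and 2.46 and 2.44 in transgenic tumour samples. All tumour samples were above all controls. Atg10 rose by 0.91 in wild-type (SE 0.18, adjusted p = 0.00172, 1.88-fold) and, with the transgene, by 0.78 (SE 0.23, adjusted p = 0.0285, 1.72-fold), and a second probe that was above background on 2 of 4 wild-type control arrays had plain differences of 0.66 and 0.46. The other enzymes and partners of this relay, Atg12, Atg5, Atg7 and Atg3, did not pass in either genotype. Their differences ran from −0.12 to 0.26 in wild-type and from −0.20 to 0.34 in transgenic cells, and Atg3 had SEs of 0.55 and 0.71. A second Atg12 probe had plain differences of 0.53 and 0.58, against 0.23 and 0.24 for the one used. For Atg7 the second probe had −0.36 and −0.43, against −0.13 and −0.23.

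Proteases of the Atg4 family trim LC3 proteins before conjugation and release them afterwards. Atg4b stood at −0.54, −0.70 and −0.77 in wild-type control, −0.12, 0.15 and −0.14 in wild-type tumour, −0.54, −0.90 and −0.99 in transgenic control and −0.12 and −0.49 in transgenic tumour samples. Tumour samples lay above the controls of both genotypes, with transgenic tumour replicate 3 close to the highest control. Arrays of that replicate read −0.15 and, in slide column 4, −0.82, which was below transgenic control replicate 1. Atg4b rose by 0.64 (SE 0.16, adjusted p = 0.00777) in wild-type and 0.66 (SE 0.21, adjusted p = 0.0376) in transgenic cells. Atg4d stood at 3.53, 3.51 and 3.34, at 4.12, 4.19 and 3.91, at 3.69, 4.01 and 3.56, and at 3.92 and 3.53. The wild-type groups were apart and the transgenic ones overlapped. Atg4d rose in wild-type cells by 0.61 (SE 0.11, adjusted p = 0.00136, 1.52-fold), against 0.12 in transgenic cells (SE 0.15, adjusted p = 0.614). Atg4c, with an SE of 0.53 in wild-type cells, did not pass. Its second probe had plain differences of −0.51 in wild-type and −0.64 in transgenic cells, against 0.10 and −0.23 for the one used.

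Among the 5 ubiquitin-like proteins of the membrane, Map1lc3a passed with tumour material in both genotypes. Map1lc3a stood at 1.77, 1.77 and 1.74 in wild-type control, 1.29, 1.20 and 1.10 in wild-type tumour, 2.28, 2.19 and 2.03 in transgenic control and 1.46 and 1.66 in transgenic tumour samples. By replicate the 4 groups did not overlap, with transgenic controls the highest and wild-type tumour samples the lowest. Transgenic tumour replicate 3 was uneven between its arrays, at 1.43 and, in slide column 4, at 1.88. The latter lay above every wild-type control array. It fell by 0.58 in wild-type (SE 0.12, adjusted p = 0.00220) and, with the transgene, by 0.51 (SE 0.15, adjusted p = 0.0312). Map1lc3b, the LC3 form most used as an autophagosome marker, stood at 6.61, 6.75 and 6.87, at 6.70, 6.74 and 6.78, at 6.83, 6.82 and 6.64, and at 6.62 and 6.46. Wild-type samples overlapped, and the difference was −0.02 in wild-type (95% interval −0.26 to 0.22, adjusted p = 0.898) and −0.26 in transgenic cells (−0.56 to 0.05, adjusted p = 0.214). Gabarap, Gabarapl1 and Gabarapl2 did not pass, at 0.35, −0.31 and 0.01 in wild-type and 0.21, −0.16 and −0.32 in transgenic cells. Plain differences of the 2 Gabarap probes in transgenic cells were −0.18 and 0.38. On slide 1 alone, the wild-type differences of Atg16l2, Atg10, Atg4b, Atg4d, Map1lc3a and Map1lc3b were −1.61, 0.97, 0.61, 0.63, −0.61 and 0.01. On slide 2 alone they were −1.60, 0.70, 0.73, 0.53, −0.48 and −0.13, and the transgenic differences there were −1.56, 1.15, 0.63, 0.10, −0.44 and −0.12.

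The receptor step held 6 genes, counting the kinase Tbk1, which is not itself a cargo receptor, and 4 were tested. Of these 4, Sqstm1 and Tbk1 rose in each genotype, against 23.1% of all genes in wild-type and 15.1% in transgenic cells, while 0 fell. Sqstm1, also called p62, which links ubiquitin-marked cargo to LC3, stood at 4.78, 4.16 and 4.51 in wild-type control, 5.12, 5.35 and 5.20 in wild-type tumour, 4.66, 4.97 and 4.04 in transgenic control and 5.27 and 5.22 in transgenic tumour samples. All tumour samples were above all controls. Sqstm1 rose by 0.73 in wild-type (SE 0.17, adjusted p = 0.00486, 1.66-fold) and, with the transgene, by 0.86 (SE 0.22, adjusted p = 0.0137, 1.82-fold). Tbk1, a kinase that phosphorylates cargo receptors and also acts in innate immune signalling, stood at 2.81, 2.75 and 3.05, at 3.70, 3.66 and 3.87, at 2.86, 2.84 and 2.71, and at 3.46 and 3.67. The tumour samples again lay above all controls, by a wide gap against the spread in each group. Tbk1, whose promoter is shown above, rose by 0.86 in wild-type (SE 0.11, adjusted p = 8.2e-05, 1.82-fold) and, with the transgene, by 0.77 (SE 0.15, adjusted p = 0.00225, 1.71-fold). Tax1bp1 and Nbr1, both cargo receptors, stood at 0.31 and −0.19 in wild-type and at 0.51 and −0.30 in transgenic cells and did not pass. Within slide 1 Sqstm1 and Tbk1 differed by 0.73 and 0.87 in wild-type cells, within slide 2 by 0.72 and 0.85, and in transgenic cells on slide 2 by 1.20 and 0.89.

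Neither of the 2 fusion genes passed. Stx17, the SNARE that brings autophagosome and lysosome together, stood at 1.40, 1.34 and 1.29 in wild-type control, 1.02, 1.22 and 1.07 in wild-type tumour, 1.76, 1.26 and 1.45 in transgenic control and 1.21 and 1.11 in transgenic tumour samples. Tumour samples lay just below the controls, at −0.23 in wild-type (SE 0.12, adjusted p = 0.154), beside −0.27 in transgenic cells (SE 0.16, adjusted p = 0.255). Its 3 probes had plain wild-type differences of −0.51, −0.24 and 0.16. Epg5, a tether of the same step, stood at 0.89, 0.35 and 0.17, at 0.65, 0.54 and 0.24, at 0.40, −0.34 and 0.71, and at 0.50 and 0.10. All groups overlapped, and the differences were 0.02 (SE 0.25, adjusted p = 0.964) and 0.06 (SE 0.33, adjusted p = 0.924).

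How far these calls rest on single replicates differed by gene. Replicate 3 of the wild-type control, wild-type tumour and transgenic tumour groups was measured on 2 arrays, and leaving it out drops both. In each wild-type group this also drops the only array on slide 2. In wild-type cells the calls of Map1lc3a, Atg4d, Atg10, Atg16l2 and Tbk1 were made whichever of the 11 replicates was left out. Leaving out wild-type tumour replicate 3 ended those of Atg2b (adjusted p = 0.0559), Pik3r4 (0.0624), Atg4b (0.0563) and Sqstm1 (0.0599) and left 6 members called. The Vmp1 call ended without wild-type control replicate 1 or 3 or wild-type tumour replicate 2 (adjusted p up to 0.0622), and that of Becn1 without any 1 of the 6 wild-type replicates (up to 0.184). Without transgenic control replicate 1, which stood apart, 18 members were called in wild-type cells, and without transgenic control replicate 2 there were 17. Here and below, calls over all genes also changed between the alternative runs, as given at the end. Leave-one-out counts thus do not single out the members.

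In transgenic cells Tbk1 was the member called whichever replicate was left out. Of these 5 wild-type calls and the transgenic Tbk1 call, the wild-type call of Atg16l2 was made in every alternative run. The others ended on slide 2 alone, at adjusted p from 0.163 to 0.477 in wild-type cells and 0.0719 for Tbk1 in transgenic cells, and that of Atg4d also under normexp background correction (0.132). The Atg16l2 call ended without transgenic tumour replicate 3 (adjusted p = 0.101), and that of Sqstm1 without transgenic control replicate 3 or transgenic tumour replicate 3 (up to 0.196). For Atg10 it ended without wild-type tumour replicate 3, transgenic control replicate 3 or either transgenic tumour replicate (up to 0.404), and for Map1lc3a without wild-type control replicate 3, wild-type tumour replicate 3, transgenic control replicate 3 or transgenic tumour replicate 2 (up to 0.0866). Pik3c3 lost its call without wild-type control replicate 3, wild-type tumour replicate 1 or 3 or either transgenic tumour replicate (up to 0.132). Calls of Ulk1 (up to 0.196), Rb1cc1 (up to 0.259) and Atg4b (up to 0.117) each ended in 8 of the 11 leave-one-out fits. They were made without wild-type control replicate 1 or 3 or transgenic control replicate 1 for Rb1cc1, without wild-type control replicate 2, transgenic control replicate 1 or transgenic tumour replicate 3 for Atg4b, and without any transgenic control replicate for Ulk1. Without wild-type tumour replicate 3 there were 3 members called, without wild-type tumour replicate 1 or transgenic tumour replicate 2 there were 5, and without transgenic tumour replicate 3 there were 4. Without transgenic control replicate 1 there were 12.

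Between genotypes, 1 of the 37 genes passed in control medium, which is 2.7% against 8.85% of all genes (3.6% higher, 5.25% lower, and 4% called with 2-fold or more). That gene was Atg14, the subunit that directs the lipid kinase complex to sites of autophagosome formation, and its promoter is among those shown above. Neutrophil markers also differed between genotypes in control medium, as given above, and their part was not tested. Atg14 stood at 0.98, 1.0 and 0.67 in transgenic control and 0.35, 0.56 and 0.05 in wild-type control samples, and at 0.07 and 0.24 in transgenic tumour and 0.26, 0.28 and 0.10 in wild-type tumour samples. The transgenic controls were above all others, and the tumour groups overlapped. Wild-type control replicate 3 was uneven between its arrays, at 0.42 on slide 1 and −0.31 on slide 2. The slide 2 difference in control medium given next rests on that −0.31 and on transgenic control replicate 3, at 0.67. Atg14 was higher in transgenic cells by 0.66 in control medium (SE 0.13, adjusted p = 0.0106, 1.58-fold; 0.55 within slide 1 and 0.99 within slide 2) and by 0.30 with tumour material (SE 0.16, adjusted p = 0.352; 0.11 within slide 2). The call ended without wild-type control replicate 3 or transgenic tumour replicate 3 (adjusted p up to 0.127) and without the slide term. Of the other GTCACGTG-holding genes, Atg3, Atg7 and Tbk1 differed between genotypes by 1.05 (SE 0.59), 0.12 (SE 0.14) and −0.11 (SE 0.12) in control medium and by 0.67, 0.04 and −0.20 with tumour material, and none of these passed. A second Atg7 probe had plain genotype differences of 0.54 and 0.47, against 0.11 and 0.01 for the one used.

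Several members had genotype differences in control medium just short of the threshold. Map1lc3a was at 0.42 (SE 0.13, adjusted p = 0.0594), Atg2b at −0.59 (SE 0.18, adjusted p = 0.0687) and Gabarapl2 at 0.38 (SE 0.12, adjusted p = 0.0707). Vmp1 was lower in every transgenic than in every wild-type control sample, at −0.80 (SE 0.31, adjusted p = 0.129). Ulk1, Sqstm1 and Map1lc3b, whose levels are given above, overlapped between genotypes in control medium and differed by 0.18 (95% interval −0.22 to 0.58), 0.09 (−0.30 to 0.49) and −0.01 (−0.26 to 0.25). The median member difference was 0.12 beside −0.03 for all genes, and 23 of 37 members were on the higher side, beside 7285 of all 15834 genes. Replicates did not overlap for 6 of 37 members (21.5% of all genes). Without transgenic control replicate 1, 6 members passed: Atg14, Ulk2, Atg2b, Gabarap, Atg4d and Tax1bp1. Without transgenic control replicate 3 there were 4, and without wild-type control replicate 3 or transgenic tumour replicate 3 there were 0.

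With tumour material 0 of 37 members passed between genotypes in the limma fit, against 4.53% of all genes (1.97% higher, 2.56% lower, and 2.85% called with 2-fold or more). At an unadjusted value under 0.05 there were 2, Map1lc3a and Vmp1. Map1lc3a was higher in transgenic cells by 0.50 (SE 0.15, adjusted p = 0.10; 0.42 within slide 2) and Vmp1 lower by 1.11 (SE 0.37, adjusted p = 0.129; −0.73 within slide 2), in each case without overlap of the replicates. The Sqstm1 difference was 0.22 (95% interval −0.25 to 0.70), that of Ulk1 −0.08 (−0.56 to 0.40) and that of Map1lc3b −0.24 (−0.55 to 0.06). Intervals of that width do not show that the genotypes were alike. The median member difference was 0.05 beside −0.01 for all genes, and replicates did not overlap for 18 of 37 members (48% of all genes).

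**Figure D4:**
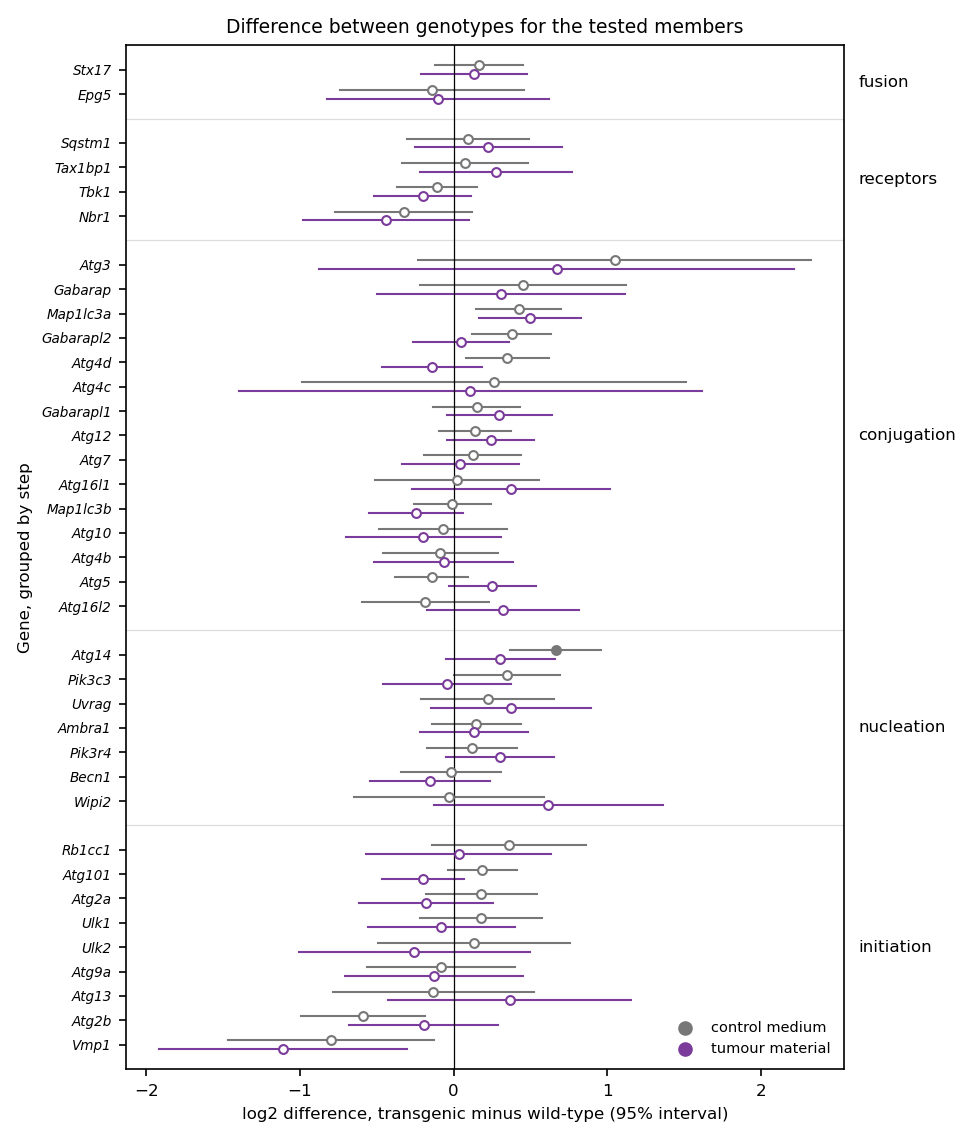
Fitted log2 difference between transgenic and wild-type macrophages for the 37 tested genes, grouped by step, in control medium (grey) and with tumour material (purple); lines are 95% intervals, and the filled point passed an adjusted p of 0.05. Atg14 in control medium is the filled point at 0.66, and Vmp1 lies below 0 in both media.

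No member passed the test of the difference between both responses to tumour material. In this limma test 0 of 37 passed, against 1.95% of all genes (1.02% higher, 0.928% lower, and 1.63% called with 2-fold or more). At an unadjusted value under 0.05 there were 3: Atg4d (−0.49), Atg101 (−0.39) and Atg5 (0.40), with adjusted p of 0.289, 0.317 and 0.338 in limma. Atg4d, called in wild-type cells alone, had transgenic controls above the wild-type ones. The response of Atg16l2 differed by 0.51 (95% interval −0.12 to 1.14), that of Sqstm1 by 0.13 (−0.48 to 0.74), that of Tbk1 by −0.09 (−0.49 to 0.31) and that of Vmp1 by −0.31 (−1.34 to 0.72). Calls made in 1 genotype alone are thus not shown to differ between genotypes.

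Lists of genes that act around this machinery were counted in the same fit. The list of upstream nutrient kinases and their regulators had 16 tested genes, of which 5 rose and 3 fell in wild-type cells (50% called, against 39.9% of all genes) and 4 rose and 3 fell in transgenic cells (43.8%, against 25.3%). Ddit4, an mTORC1 inhibitor induced by stress, rose by 1.81 (SE 0.24, adjusted p = 0.000114) and 1.24 (SE 0.32, adjusted p = 0.0137) in wild-type and transgenic cells. Sesn1, a sestrin that restrains mTORC1, fell by 2.51 (SE 0.37, adjusted p = 0.000242) and 2.00 (SE 0.49, adjusted p = 0.0104), and Deptor, an mTOR inhibitor, by 2.51 (SE 0.23, adjusted p = 5.26e-06) and 1.10 (SE 0.30, adjusted p = 0.0176). Prkab1, a subunit of AMPK, rose by 1.29 (SE 0.14, adjusted p = 2.52e-05) and 0.90 (SE 0.19, adjusted p = 0.00403). Replicates of control and tumour samples did not overlap for these 4 genes in either genotype. Among transgenic calls of these 4, that of Ddit4 ended without transgenic control replicate 3 or transgenic tumour replicate 3 (adjusted p up to 0.247) and that of Deptor without transgenic tumour replicate 3 (0.175).

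In the list of organelle receptors and cargo adaptors, 3 of 15 genes rose and 4 fell in wild-type cells (46.7% called, against 39.9% of all genes), and 4 rose and 1 fell in transgenic cells (33.3%, against 25.3%). Bnip3, a receptor for removal of mitochondria, stood at 4.88, 4.68 and 5.25 in wild-type control, 7.50, 7.74 and 7.57 in wild-type tumour, 5.07, 4.44 and 4.69 in transgenic control and 6.01 and 5.39 in transgenic tumour samples. Wild-type tumour samples were far above the rest. Bnip3 rose by 2.59 in wild-type (SE 0.20, adjusted p = 1.84e-06) and, with the transgene, by 0.85 (SE 0.27, adjusted p = 0.0357). Pink1, a kinase that marks damaged mitochondria, fell by 1.53 (SE 0.24, adjusted p = 0.000345) and 1.03 (SE 0.31, adjusted p = 0.0297), and Ncoa4, the receptor for ferritin, fell by 1.33 in wild-type cells (SE 0.14, adjusted p = 2.13e-05). The transgenic calls of Bnip3 and Pink1 ended without wild-type tumour replicate 3, transgenic control replicate 3 or transgenic tumour replicate 2, that of Bnip3 also without wild-type tumour replicate 2 or transgenic control replicate 2, and that of Pink1 also without wild-type tumour replicate 1 (adjusted p up to 0.202 and 0.199).

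Among tethers and SNAREs of fusion 2 of 17 rose and 1 fell in each genotype (17.6% called, against 39.9% and 25.3% of all genes). Ykt6, a SNARE of the same step as Stx17, rose by 0.82 (SE 0.12, adjusted p = 0.000192) and 0.62 (SE 0.16, adjusted p = 0.0125), and Tecpr1, a tether on lysosomes, fell by 1.24 (SE 0.13, adjusted p = 1.74e-05) and 0.72 (SE 0.17, adjusted p = 0.00924). Both transgenic calls ended without transgenic control replicate 3 or transgenic tumour replicate 3 (adjusted p up to 0.132 and 0.234). Regulators of the lipid kinase and readers of its product had 1 rise and 1 fall among 12 genes in wild-type cells, Sh3glb1 and Mtmr14. In transgenic cells 1 rose, Bcl2, which binds Becn1. The shares called were 16.7% and 8.33%, against 39.9% and 25.3% of all genes. The Sh3glb1 call (0.42, SE 0.12) ended without wild-type control replicate 3, wild-type tumour replicate 3 or transgenic tumour replicate 3 (adjusted p up to 0.0946), that of Mtmr14 (−0.55, SE 0.13) without wild-type tumour replicate 3 (0.0651), and that of Bcl2 (0.72, SE 0.20) without wild-type control replicate 3, wild-type tumour replicate 3 or either transgenic tumour replicate (up to 0.0696).

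Between genotypes these lists, without the MiT/TFE factors, had 1 call among 60 tested genes in control medium (1.67%, against 8.85% of all genes) and 4 with tumour material (6.67%, against 4.53%). In control medium Lamp2, a lysosomal membrane protein needed for fusion, was lower in transgenic cells by 0.40 (SE 0.10, adjusted p = 0.0341), the 1 call among 17 fusion genes. Its second probe had a plain difference of −0.13, against −0.39 for the one used. With tumour material transgenic cells had less Bnip3 (−2.01, SE 0.26, adjusted p = 0.00122) and Wdfy3, a scaffold for aggregate removal (−1.01, SE 0.19, adjusted p = 0.0104), and more Bcl2 (0.99, SE 0.20, adjusted p = 0.0151) and Tecpr1 (0.96, SE 0.17, adjusted p = 0.00719). The Lamp2 call was made in 5 of the 11 leave-one-out fits (adjusted p up to 0.225), and those of Wdfy3, Bcl2 and Tecpr1 ended without wild-type tumour replicate 3 or transgenic tumour replicate 3 (adjusted p up to 0.310, 0.250 and 0.170). The Bnip3 call was made in all 11. A second Wdfy3 probe had a plain genotype difference of −0.48 with tumour material, against −0.98 for the one used.

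The 4 MiT/TFE factors, the family of TFEB, had responses of both signs to tumour material. Tfeb fell with tumour material by 1.55 in wild-type (SE 0.12, adjusted p = 1.67e-06) and, with the transgene, by 1.16 (SE 0.16, adjusted p = 0.000233), and Tfec rose by 1.83 (SE 0.13, adjusted p = 9.24e-07) and 2.47 (SE 0.17, adjusted p = 1.70e-06). Mitf rose by 0.56 in transgenic cells (SE 0.11, adjusted p = 0.00238) and stood at −0.20 in wild-type cells, without passing. Tfe3 stood at −0.09 (SE 0.29, adjusted p = 0.829) in wild-type and 0.25 (SE 0.38, adjusted p = 0.672) in transgenic cells. In control medium transgenic cells had less Mitf (−0.46, SE 0.09, adjusted p = 0.00770) and less Tfec (−0.61, SE 0.14, adjusted p = 0.0212). The genotypes differed in Tfeb by 0.31 there, without a call (adjusted p = 0.164). In cells with tumour material the Tfeb difference was 0.69 (SE 0.16, adjusted p = 0.0265), the 1 call there. By the probes used, all 4 factors were on the higher side in transgenic cells (0.03 to 0.69), as were 7675 of all 15834 genes. A second Tfe3 probe had a plain difference of −0.16 there, against 0.20 for the one used. For the difference between both responses all 4 were also above 0 by the probes used (0.35 to 0.76), and 1, Mitf, passed. Over all genes tested 8190 of 15834 were above 0. The second Tfe3 probe had plain responses of 0.39 in wild-type and 0.42 in transgenic cells, against 0.04 and 0.40 for the one used. The Tfeb call with tumour material was made in 5 of the 11 leave-one-out fits (adjusted p up to 0.202), and the control calls ended without wild-type control replicate 3 for Mitf (0.0665) and without wild-type control replicate 1 or 3 or transgenic control replicate 3 for Tfec (up to 0.187).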

How the data were processed

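Macrophage RNA was hybridised to one-colour Agilent 8x60K mouse arrays (14 arrays, 11 replicates), and per the submitters' processing notes the scans were quantified in Feature Extraction 10.7.3.1. The deposited scanner files hold 1 processed signal intensity per spot, background-subtracted and detrended per the file headers, together with marks for bright and uneven spots. Values of the deposited series matrix are on a log2 scale with the same median in every column, used as an alternative; the sources used here do not say how the authors normalized it. Other deposited marks (0 or 1 per spot) flagged uneven spots, which were left out (166 to 270 per array).

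Each array's log2 intensity was set relative to its 75th percentile (83.9 to 144 in signal). Kept were 20208 probes that were well above background throughout at least 1 group, and the brightest stood for each gene. limma 3.58.1 (R 4.3.3) fitted a mean for each of the 4 groups plus the slide, treating repeat arrays as a random block (correlation 0.0717). At so low a correlation its SEs and adjusted p treat repeat arrays as nearly independent samples, with 9 residual degrees of freedom. Adjusted p are Benjamini-Hochberg values over 15834 genes, with a threshold of 0.05. Titles that end in -2 were taken for repeat arrays of replicate 3. Labels give the replicates as biological ones, and with 3 or fewer a group, precision is limited by their number.

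Members and gene lists were chosen with earlier results of these data known. Values by replicate are given for members called in any comparison, for Ulk1, Map1lc3b and Sqstm1, and for the 2 members per step with the largest wild-type response; up to 4 called genes are named per surrounding list and comparison. Alternatives covered background correction, normalization, the filter, the slide term, repeat arrays, single slides, slide column 4, a replicate block and leaving out each replicate. The normexp alternative used median spot signals, as mean signals were not used here. The fit was tested on simulated data.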

Additional observations from a re-analysis of the deposited data

Results flagged for a closer look

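Among the 64 tested genes of the lists around the autophagy machinery, 2 (3.12%, against 1.95% of all genes) passed the limma test of the difference between both tumour responses. The response of Bnip3 was smaller in transgenic cells, by −1.74 (SE 0.34, adjusted p = 0.0220). That call ended without wild-type control replicate 1, wild-type tumour replicate 3, transgenic control replicate 3 or transgenic tumour replicate 3 (adjusted p up to 0.201). The response of Mitf was larger in transgenic cells, by 0.76 (SE 0.13, adjusted p = 0.0132), and that call ended without wild-type tumour replicate 3 or transgenic tumour replicate 3 (adjusted p up to 0.182). Within slide 2 alone the differences were −1.40 for Bnip3 and 0.70 for Mitf.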

How the results depend on the processing

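Across the alternatives, 332 of 432 values of the 21 called member results stayed on their side of the threshold and 100 lost the call, while 104 of 3342 values of uncalled ones gained one; 0 turned direction with a call. Members called with tumour material in wild-type cells (11) became 17 under normexp, 18 without slide column 4 and 1 on slide 2 alone, and transgenic calls (9) became 3 without the filter and 3 on slide 2 alone. In control medium the 1 genotype call became 4 under normexp, 4 without repeat arrays, 2 on slide 1 alone, 2 without slide column 4, 0 without the slide term and 0 on slide 2 alone. With tumour material, and for the difference between responses, 0 became 1 without slide column 4. Leaving out 1 replicate gave 6 to 18, 3 to 12, 0 to 6, 0 to 2 and 0 to 1 calls in the 5 comparisons. Quantile normalization split the wild-type calls 6 higher and 7 lower, and the transgenic ones 4 and 8; the deposited matrix gave the same splits. normexp gave 6 and 11 in wild-type cells.

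Same-numbered replicates do not share a labelled origin, and their deviations correlated at −0.481 to 0.157. With the replicate number as a replicate block, 10 members were called in wild-type cells, 4 in transgenic cells, and 2 and 0 between genotypes in control medium and with tumour material; 0 of 3 wild-type controls correlated best with their own number.

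Genes called in all numbered 768 to 7955 and 1761 to 5285 with tumour material and 0 to 2711 and 0 to 2061 between genotypes (6316, 4000, 1402 and 717 in the reported fit). The causes were not tested. Slide 2 alone has 1 array for each of 3 groups, and dim probes limit Wipi1, Atg4a, Optn and Calcoco1.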
